A study of Mus musculus with 30 samples.

Results

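Liver mRNA of 10 genes that encode the urea cycle, its activator, its mitochondrial carriers and the main ammonia-releasing enzymes was followed across 5 diets. The genes were taken by symbol, for what they are known to do, with earlier results of these data known: *Nags*, *Cps1*, *Otc*, *Ass1*, *Asl*, *Arg1*, *Slc25a15*, *Slc25a13*, *Gls2* and *Glud1*. All 10 were among the 14173 genes of the deposited count tables, and all 10 passed the filter on low counts in every comparison.

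The livers came from 30 male C57BL/6J mice, 6 per diet and 1 library each, so that mice were the replicates. Mice were 6 months old, were housed singly, had eaten their diet for 12 weeks and were fasted for 4 h before collection. Cas-20% held 20% casein, with 0.57 g of methionine and 0.41 g of cysteine per 100 g of diet, and Cas-5% held 5% casein, with 0.15 and 0.1 g. Soy-20% held 20% soy protein (0.22 and 0.22 g), Soy-20% + SAA the same protein with added sulfur amino acids (0.58 and 0.41 g), and Soy-10%, in spite of its name, 11.5% soy protein (0.13 and 0.13 g). Before that, mice of the casein groups had eaten the Cas-20% diet for 2 weeks and mice of the soy groups Soy-20%. All mice were of the same sex and inbred strain.

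The urea cycle turns the ammonia left over from amino acid breakdown into urea, and runs almost wholly in hepatocytes, most of all in those around the portal vein. It begins in the mitochondrion, where CPS1 joins ammonia and bicarbonate once N-acetylglutamate, the product of NAGS, has switched it on, and where OTC joins the resulting carbamoyl phosphate to ornithine. ASS1, ASL and ARG1 complete it in the cytosol, the ornithine carrier SLC25A15 and the aspartate-glutamate carrier citrin (SLC25A13) link both compartments, and GLS2 and GLUD1 release ammonia from glutamine and glutamate. In rats and mice, the enzymes of the cycle are known to be more abundant on high-protein diets.

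Library totals ran from 7694015 to 14565542 counts, with a median of 10803734. In 4 of the 6 Soy-20% + SAA libraries, numbers 3 to 6, gene counts moved with the GC content of the transcript's last 200 bases: the slope was 0.0595, 0.186, 0.178 and 0.204 on the log2 scale per 10 percentage points of GC, against −0.0617 to 0.0256 in the other 26 libraries. For the 10 genes, counts of calls that use this diet are therefore also given without those libraries. One other library, Soy-10% liver 4, held pancreatic acinar RNA (5 enzyme genes summing to 462 CPM, counts scaled to the library total, against at most 0.478 in any other liver). Leaving it out changed 1 call in the soy comparisons, that of *Gls2* against Soy-20% (edgeR adjusted p = 0.075). Replicate livers were separate mice. The assay counts 1 fragment near the 3′ end of each transcript, and fewer cells of a type cannot be told apart from less RNA per cell in whole liver.

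The 250 bases upstream of the RefSeq start site (GRCm38.p6) were at hand for 6 of the genes, *Ass1*, *Glud1*, *Nags*, *Otc*, *Slc25a13* and *Slc25a15*. Those of 3 genes are shown, 5′ to 3′ on the coding strand with each CpG pair in capitals, because *Ass1* had the largest change with diet protein among the 10 genes, *Otc* moved the same way by less, and *Glud1* moved the other way.
Ass1 (chr2:31470020-31470269, plus strand): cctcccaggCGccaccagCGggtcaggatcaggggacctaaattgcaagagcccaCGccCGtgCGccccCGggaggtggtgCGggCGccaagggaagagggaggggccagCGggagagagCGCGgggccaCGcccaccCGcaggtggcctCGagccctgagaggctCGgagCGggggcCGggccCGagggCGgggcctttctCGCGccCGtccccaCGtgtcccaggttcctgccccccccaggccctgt
Otc (chrX:10252055-10252304, plus strand): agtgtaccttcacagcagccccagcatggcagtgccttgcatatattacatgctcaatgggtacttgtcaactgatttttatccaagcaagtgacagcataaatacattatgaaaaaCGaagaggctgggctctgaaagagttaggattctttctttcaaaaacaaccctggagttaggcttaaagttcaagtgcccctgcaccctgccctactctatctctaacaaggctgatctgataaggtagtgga
Glud1 (chr14:34310477-34310726, plus strand): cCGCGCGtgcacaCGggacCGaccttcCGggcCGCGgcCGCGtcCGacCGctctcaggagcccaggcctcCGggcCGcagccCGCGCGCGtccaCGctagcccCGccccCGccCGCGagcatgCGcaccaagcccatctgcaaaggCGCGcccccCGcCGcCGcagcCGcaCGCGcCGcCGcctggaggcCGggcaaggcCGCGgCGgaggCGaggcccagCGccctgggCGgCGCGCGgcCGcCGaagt
The *Otc* window held 1 CpG pair, fewer than most of the 32851 mouse windows of this length (7.87% held fewer), whereas the *Ass1* window held 23 and the *Glud1* window 46. The median window held 6. In the same windows with the 50 bases after the start site added, 6 motifs were searched on both strands: the cAMP response element TGACGTCA, the C/EBP-ATF element TGATGNAA, the C/EBP site TTGCNNAA, the HNF4 site CAAAGTCCA, the TATA box TATAAA and the CCAAT box. Their letters occur in 1.79%, 3.97%, 10.8%, 0.475%, 13.6% and 37.4% of all windows in that order. Among the 6 genes, the only match was a CCAAT box 22 bases before the start of *Slc25a13*, so that no 2 matches overlapped.

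In counts normalized for library size by the authors, 9 of the 10 genes were lowest on Cas-5%. *Ass1*, the argininosuccinate synthase, ran from 1236 to 1802 in the 6 Cas-5% livers (median 1623), from 2317 to 3407 on Soy-10% (median 2756), from 4110 to 6365 on Soy-20% (median 5065), from 4211 to 6037 on Soy-20% + SAA (median 5095) and from 5837 to 12682 on Cas-20% (median 7499). Every Cas-5% liver lay below every Soy-10% liver, and every Soy-10% liver below every liver on 20% protein. *Gls2*, the liver glutaminase, ran from 755 to 1018 on Cas-5% (median 872), from 1454 to 2126 on Soy-10% (median 1566), from 1798 to 2705 on Soy-20% (median 2367), from 1796 to 2763 on Soy-20% + SAA (median 2203) and from 2353 to 3951 on Cas-20% (median 3147). The Cas-5% livers again stood below all others, while Soy-10% livers 1 and 2, at 2126 and 1854, reached into the range of the soy controls.

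*Asl*, the argininosuccinate lyase that follows ASS1, ran from 828 to 1138 on Cas-5%, from 1250 to 1584 on Soy-10%, from 1571 to 2147 on Soy-20%, from 1699 to 2161 on Soy-20% + SAA and from 1633 to 2719 on Cas-20%. Its 3 diets with 20% protein overlapped, and Cas-5% overlapped with none. *Otc*, on the X chromosome, ran from 2223 to 2788 on Cas-5%, from 3577 to 4176 on Soy-10%, from 3999 to 5321 on Soy-20%, from 3599 to 4673 on Soy-20% + SAA and from 3952 to 4417 on Cas-20%. For this gene Cas-5% stood apart and the other 4 diets overlapped.

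*Cps1*, which encodes the first and most tightly controlled enzyme, ran from 3149 to 5683 on Cas-5%, from 4102 to 5572 on Soy-10%, from 5074 to 7935 on Soy-20% and from 8139 to 13501 on Cas-20%. In the Soy-20% + SAA livers it was 6659, 7888, 7043, 3094, 3237 and 4040, in order of liver number. *Arg1*, the arginase that releases urea, ran from 4950 to 6967 on Cas-5%, from 7608 to 9434 on Soy-10%, from 8574 to 11880 on Soy-20% and from 11001 to 13946 on Cas-20%, and was 10984, 9849, 9542, 6410, 6830 and 6343 in the Soy-20% + SAA livers. Both genes were lowest in livers 4 to 6 of that diet, which carried the steepest GC slopes.

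The other 4 genes encode the activator, both carriers and the glutamate dehydrogenase. *Nags* ran from 250 to 324 on Cas-5% and from 271 to 449 on Cas-20%, and *Slc25a13* from 1628 to 2061 and from 2129 to 2465. *Slc25a15*, the ornithine carrier, ran from 1494 to 1819 on Cas-5% and from 2099 to 3707 on Cas-20%. *Glud1* was the exception to the order, running from 11135 to 14654 on Cas-5% and from 9971 to 12164 on Cas-20%.

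**Figure D1:**
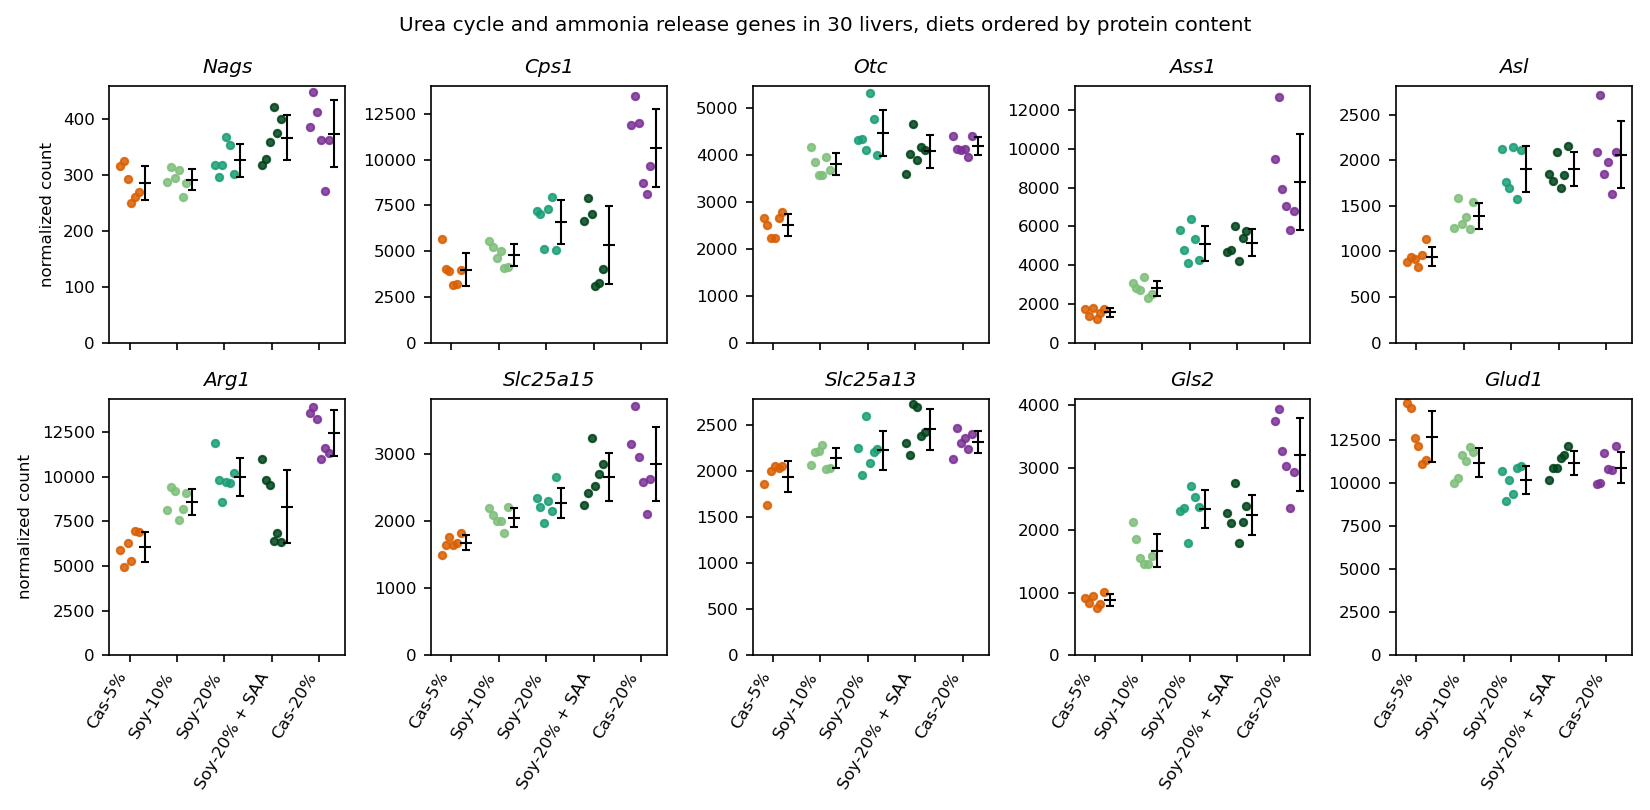
Normalized count of each of the 10 genes in each of 30 livers (y axis, from 0), with diets on the x axis in order of protein content. Each point is 1 liver and the black bar is the mean ± SD of 6. For *Ass1* the Cas-5% livers sit between 1236 and 1802 and the Cas-20% livers between 5837 and 12682, whereas *Glud1* is highest on Cas-5%.

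Casein restriction lowered 9 of the 10 genes. *Ass1* was 5.25-fold lower on Cas-5% than on Cas-20% (log2 change −2.39 ± 0.16, SE; adjusted p = 3.8e-08, edgeR quasi-likelihood F test with Benjamini-Hochberg adjustment over all genes tested, n = 6 livers per diet), *Gls2* 3.62-fold (−1.86 ± 0.11; adjusted p = 1.3e-08) and *Cps1* 2.64-fold (−1.40 ± 0.15; adjusted p = 4.1e-06). The share of genes called lower over the whole table was 13.3%. *Asl*, *Arg1* and *Otc* followed with log2 changes of −1.11 ± 0.11, −1.03 ± 0.098 and −0.73 ± 0.07, so that all 5 enzymes of the cycle fell. The median change of the 10 genes was −0.89, against 0.016 over all genes.

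The carriers fell too, the ornithine carrier *Slc25a15* by 0.76 ± 0.11 and citrin, *Slc25a13*, by 0.24 ± 0.069 on the log2 scale. *Nags*, whose product switches CPS1 on, fell by 0.38 ± 0.11 (edgeR adjusted p = 0.014). *Glud1* was 1.18-fold higher on Cas-5% and missed the threshold (log2 change 0.23, 95% interval 0.06 to 0.41; edgeR adjusted p = 0.052). It was called higher by DESeq2 (adjusted p = 0.034), with at least 10 counts in every liver (edgeR, 0.045), with all 30 livers in 1 fit (0.022) and without Cas-20% liver 6 or Cas-5% liver 5 or 6 (0.033 to 0.04), and not with the GC slope as a covariate (0.15). For 8 of the 10 genes every Cas-5% liver was below every Cas-20% liver, which held for 7.73% of all genes, and the exceptions were *Nags* and *Glud1*. With the GC slope of each library as a covariate, *Nags* (edgeR adjusted p = 0.059) and *Slc25a13* (0.053) were no longer called. The other genes called above were kept.

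Restriction of soy protein, which took away 8.5 percentage points of protein rather than 15, lowered 3 of the genes against Soy-20% and 5 against Soy-20% + SAA. *Ass1* was 1.82-fold lower on Soy-10% than on Soy-20% (log2 change −0.87 ± 0.11; edgeR adjusted p = 0.0013) and 1.84-fold lower than on Soy-20% + SAA (−0.88 ± 0.11; 0.00033). It was lower in 6 of 6 Soy-10% livers than in any liver of either control. *Asl* fell by 0.46 ± 0.09 and by 0.46 ± 0.083 against the same controls, and *Gls2* by 0.49 ± 0.1 and 0.43 ± 0.11. *Nags*, by 0.33 ± 0.083, and *Slc25a15*, by 0.38 ± 0.086, fell against Soy-20% + SAA alone, and were at −0.16 (95% interval −0.31 to −0.01) and −0.15 (−0.30 to 0.00) against Soy-20%. In Soy-20% + SAA libraries 3 to 6, which carry the GC trend, *Nags* was 358 to 421 and *Slc25a15* 2515 to 3235. In libraries 1 and 2 these genes were lower, at 318 to 328 and 2234 to 2405, and neither was called with those libraries as the control. *Otc* was at −0.24 ± 0.072 (edgeR adjusted p = 0.15) and −0.10 ± 0.07 (0.32), *Slc25a13* at −0.06 ± 0.065 (0.79) and −0.20 ± 0.068 (0.056), and *Glud1* at 0.13 ± 0.069 (0.46) and 0.00 ± 0.069 (0.98).

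The share of all genes called lower was 0.546% against Soy-20% and 8.47% against Soy-20% + SAA. Groups did not overlap for 1 of the 10 genes, *Ass1*, against Soy-20% (0.748% of all genes) and for 4, *Nags*, *Ass1*, *Asl* and *Slc25a15*, against Soy-20% + SAA (3.31% of all genes). With 1 liver left out, the *Ass1* call against Soy-20% was kept in 12 of 12 fits, that of *Asl* was lost in 6 and that of *Gls2* in 10. The count then ran from 1 to 4, and it was 1, *Ass1*, without Soy-20% liver 1 or 4 or Soy-10% liver 3 or 5. Shares of all genes called in those fits are not given here.

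In the comparison with Soy-20% + SAA, several values depended on libraries 3 to 6, which carry the GC trend. With libraries 1 and 2 as the control, 2 genes were called, *Ass1* and *Cps1* (log2 change −0.61; edgeR adjusted p = 0.013), beside 2.54% of all genes in either direction. With the GC slope as a covariate 3 were called, *Ass1*, *Asl* and *Cps1* (−0.64; 0.033), beside 3.17% of all genes. *Cps1* stood at −0.16 (95% interval −0.61 to 0.30) with all 6 libraries and at −0.47 ± 0.11 against Soy-20% (edgeR adjusted p = 0.071). *Arg1* stood at 0.05 (−0.24 to 0.33) with all 6, at −0.28 without libraries 3 to 6 and at −0.21 ± 0.077 against Soy-20% (edgeR adjusted p = 0.24), and so changed sign with those libraries. The 3′ ends of *Cps1* and *Arg1* are the lowest in GC of the 10, at 32.5% and 31.5% over the last 200 bases, against 48.0% for *Ass1* and 58.5% for *Asl*, the highest.

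**Figure D2:**
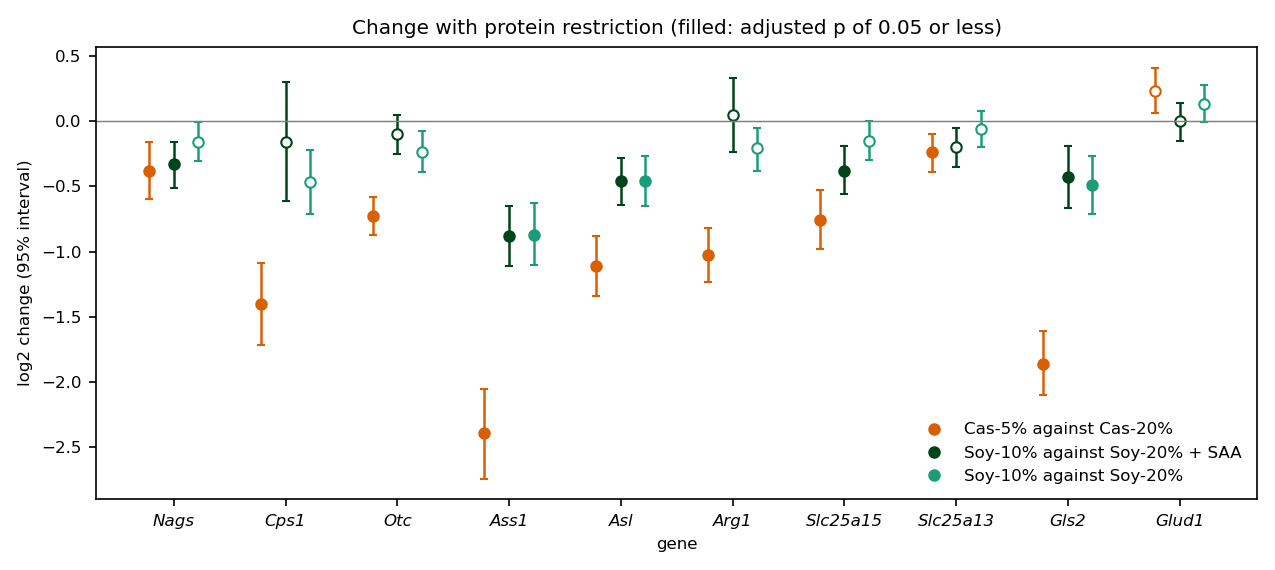
Log2 change of each of the 10 genes (x axis) with casein restriction and with soy restriction against either soy control (y axis, points with 95% intervals; filled points have an adjusted p of 0.05 or less, edgeR). Casein changes reach −2.39 for *Ass1*, whereas the soy changes of that gene are −0.88 and −0.87, and *Glud1* has no filled point.

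Whether casein restriction changed the genes by more than soy restriction was tested as a difference of both effects in 24 livers, with Soy-20% + SAA as the soy control. For 6 of the 10 genes the casein effect was more negative: *Ass1* by 1.52 ± 0.20, *Gls2* by 1.43 ± 0.17, *Cps1* by 1.25 ± 0.28, *Arg1* by 1.08 ± 0.17, *Asl* by 0.66 ± 0.14 and *Otc* by 0.63 ± 0.096 on the log2 scale, with edgeR adjusted p values between 2.3e-05 and 0.0084. The share of all genes with a more negative casein effect was 5.49%. For *Nags* the difference was −0.05 (95% interval −0.33 to 0.23), for *Slc25a13* −0.05 (−0.24 to 0.15), for *Slc25a15* −0.38 (−0.68 to −0.09; adjusted p = 0.087) and for *Glud1* 0.23 (0.01 to 0.45; adjusted p = 0.17). With Soy-20% as the control 7 were called, *Slc25a15* included (5.99% of all genes in either direction), and without libraries 3 to 6 of Soy-20% + SAA 5 were (2.27%), without *Cps1* (−0.80; adjusted p = 0.075).

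The restrictions were not of equal size in protein, and protein source and the amount removed cannot be told apart in this difference. Per 10 percentage points of protein removed, 3 of the 10 genes were called with Soy-20% + SAA as the control. They were *Gls2* (−0.74, edgeR adjusted p = 0.011), *Arg1* (−0.75, 0.013) and *Otc* (−0.37, 0.017). With Soy-20% as the control 0 were called, and *Gls2* came nearest (−0.67, 0.10). There 6 had an unadjusted edgeR p under 0.05, for which the share of all genes is not given here. This scaling was chosen after the data were seen, and DESeq2 was not run on it. Of all genes, 8.39% and 0.104% were called in either direction on that scale with these controls. *Ass1* differed there by −0.57 (0.065) and −0.58 (0.31).

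The restricted diets were close in methionine, at 0.15 and 0.13 g per 100 g, and apart in protein, at 5% casein and 11.5% soy. Between them 6 genes were lower on Cas-5% (6.14% of all genes were): *Gls2* by 0.91 ± 0.097, *Ass1* by 0.83 ± 0.10, *Otc* by 0.58 ± 0.068, *Asl* by 0.54 ± 0.081, *Arg1* by 0.49 ± 0.087 and *Slc25a15* by 0.28 ± 0.063 on the log2 scale. *Cps1* was at −0.25 (95% interval −0.50 to 0.01; edgeR adjusted p = 0.22, and 0.018 without Cas-5% liver 1, which stood apart at 5683). Protein content and protein source cannot be told apart in this comparison. Each of these comparisons shares livers with those above.

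Over the 5 diets, with a term for protein source, the slope on diet protein was called for all 10 genes. Per 10 percentage points of protein *Ass1* rose by 1.42 ± 0.095 on the log2 scale (edgeR adjusted p = 1.6e-12, n = 30 livers), *Gls2* by 1.02 ± 0.088, *Cps1* by 0.76 ± 0.12, *Asl* by 0.68 ± 0.058, *Arg1* by 0.51 ± 0.084, *Slc25a15* by 0.45 ± 0.06, *Otc* by 0.40 ± 0.048, *Nags* by 0.27 ± 0.054 and *Slc25a13* by 0.16 ± 0.04. *Glud1* fell by 0.13 ± 0.043 (edgeR adjusted p = 0.023). The shares of all genes called higher and lower with protein were 14.0% and 11.8%. In the casein diets alone, the same livers as above, 9 genes were called, all but *Glud1*, beside 24.9% of all genes in either direction. In the soy diets alone 3 were, *Ass1*, *Asl* and *Gls2*, beside 2.78% of all genes. Over 5 diets without Soy-20% + SAA libraries 3 to 6, each of these calls was kept in the same direction, *Ass1* at 1.43 and *Glud1* at −0.15. *Glud1* was lost without Cas-5% liver 1 or without liver 2 (edgeR adjusted p = 0.062 and 0.059).

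Diet protein and methionine were then put in the same model. They are separated here by the soy diets, since both casein diets differ in both, and the fit rests on 5 diet compositions. Cysteine rose with methionine in the soy supplement, from 0.22 to 0.41 g per 100 g, so the methionine term is not separated from cysteine. With methionine in the model, the protein term was positive for 6 genes, *Ass1* (1.45 ± 0.16), *Gls2* (1.12 ± 0.15), *Cps1* (1.05 ± 0.20), *Arg1* (0.76 ± 0.14), *Asl* (0.70 ± 0.10) and *Otc* (0.53 ± 0.08), and negative for *Glud1* (−0.24 ± 0.073; edgeR adjusted p = 0.032), in log2 units per 10 percentage points. The shares of all genes called were 6.05% positive and 3.74% negative. *Slc25a15* stood at 0.28 (95% interval 0.07 to 0.48; adjusted p = 0.073), *Nags* at 0.13 (−0.05 to 0.31) and *Slc25a13* at 0.05 (−0.09 to 0.19). Without Soy-20% + SAA libraries 3 to 6 the 6 positive terms were still called, *Cps1* at 0.68 (adjusted p = 0.029) and *Arg1* at 0.46 (0.047) among them, while *Glud1* was not (−0.19; 0.30). For *Glud1*, adjusted p values of 0.054 to 0.061 were obtained without Soy-20% liver 2 or 4 or Soy-20% + SAA liver 4 or 6 alone.

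The methionine term was called for 0 of the 10 genes by edgeR and by DESeq2, and 1 had an unadjusted p under 0.05 (*Arg1*, −0.09 ± 0.041 per 0.1 g per 100 g, adjusted p = 0.16). Over all genes, 3692 of 12561 had an unadjusted edgeR p under 0.05 for this term. The methionine term was called for 14.4% of all genes, though for 0 of all genes without Soy-20% + SAA libraries 3 to 6 or with the GC slope as a covariate. For *Ass1* the methionine term was −0.01 (95% interval −0.11 to 0.09) and for *Asl* 0.00 (−0.06 to 0.05). These intervals, like those of *Cps1* (−0.22 to 0.02) and *Gls2* (−0.12 to 0.06), leave room for a change per 0.1 g in either direction.

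**Figure D3:**
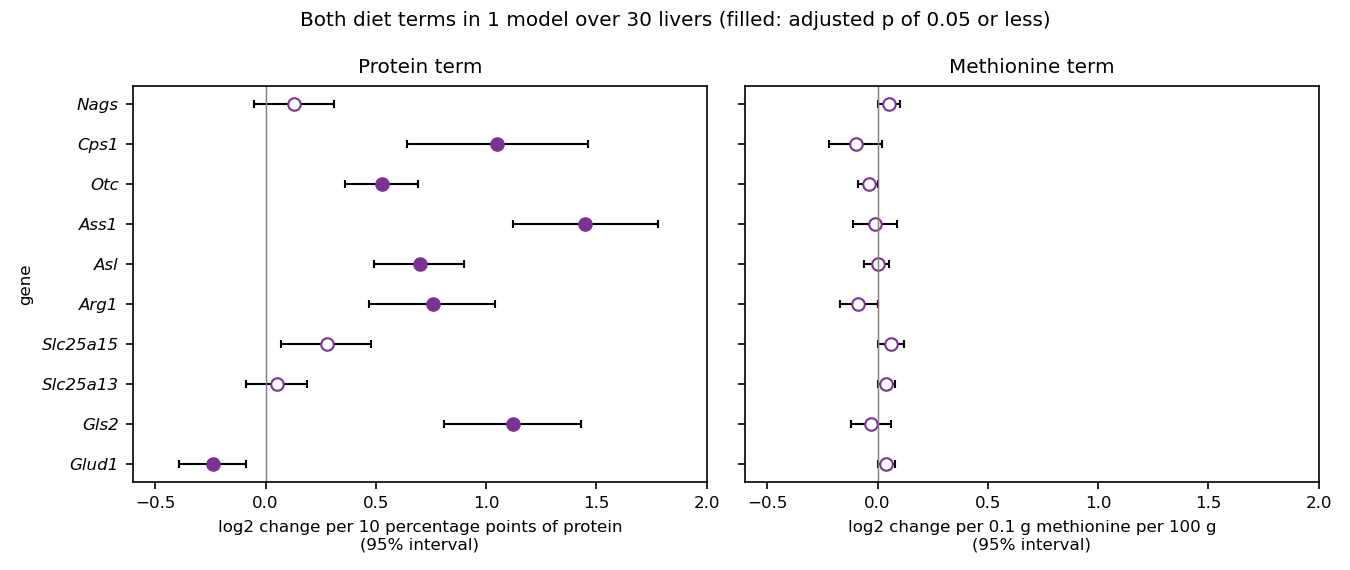
Protein term (left, log2 change per 10 percentage points of protein) and methionine term (right, log2 change per 0.1 g of methionine per 100 g of diet) of the 10 genes from 1 edgeR model over 30 livers, with 95% intervals; filled points have an adjusted p of 0.05 or less. *Ass1* has the largest protein term, 1.45, and no point is filled on the right.

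Added sulfur amino acids in a soy diet of the same protein content changed 0 of the 10 genes by edgeR and by DESeq2, and 1 had an unadjusted p under 0.05 (*Slc25a15*, −0.22, 95% interval −0.42 to −0.02, Soy-20% minus Soy-20% + SAA). Over all genes, 2892 of 11932 had an unadjusted edgeR p under 0.05. edgeR called 0.00838% of all genes, which is 1 gene, and 0 of the 10 genes without libraries 3 to 6. *Slc25a15* was 2515 to 3235 in those libraries and 2234 and 2405 in libraries 1 and 2, against 1971 to 2649 on Soy-20%. *Ass1* stood at 0.00 (−0.25 to 0.25), *Asl* at 0.01 (−0.19 to 0.21), *Gls2* at 0.07 (−0.16 to 0.30) and *Glud1* at −0.13 (−0.28 to 0.03). The interval of *Cps1*, at 0.32 (−0.17 to 0.80), was the widest of these, and the value was −0.14 without libraries 3 to 6.

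Between the control diets with matched sulfur amino acids, 4 genes were higher on Cas-20% than on Soy-20% + SAA: *Cps1* by 1.0 ± 0.23, *Ass1* by 0.69 ± 0.16, *Arg1* by 0.58 ± 0.14 and *Gls2* by 0.52 ± 0.13 on the log2 scale, with edgeR adjusted p values of 0.043 to 0.047. Of all genes 1.42% were higher. These calls stood near the threshold and 0 were left without libraries 3 to 6 of Soy-20% + SAA, with the GC slope as a covariate, or without any 1 of the 6 Cas-20% livers or of livers 3 to 6 of Soy-20% + SAA. Shares of all genes called in those fits are not given here. Against Soy-20%, whose libraries carry no such trend, a comparison chosen after the data were seen, 2 genes were higher on Cas-20%, *Cps1* and *Ass1*, beside 2.69% of all genes called in either direction. The 6 genes not called lay between −0.08 and 0.12.

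**Figure D4:**
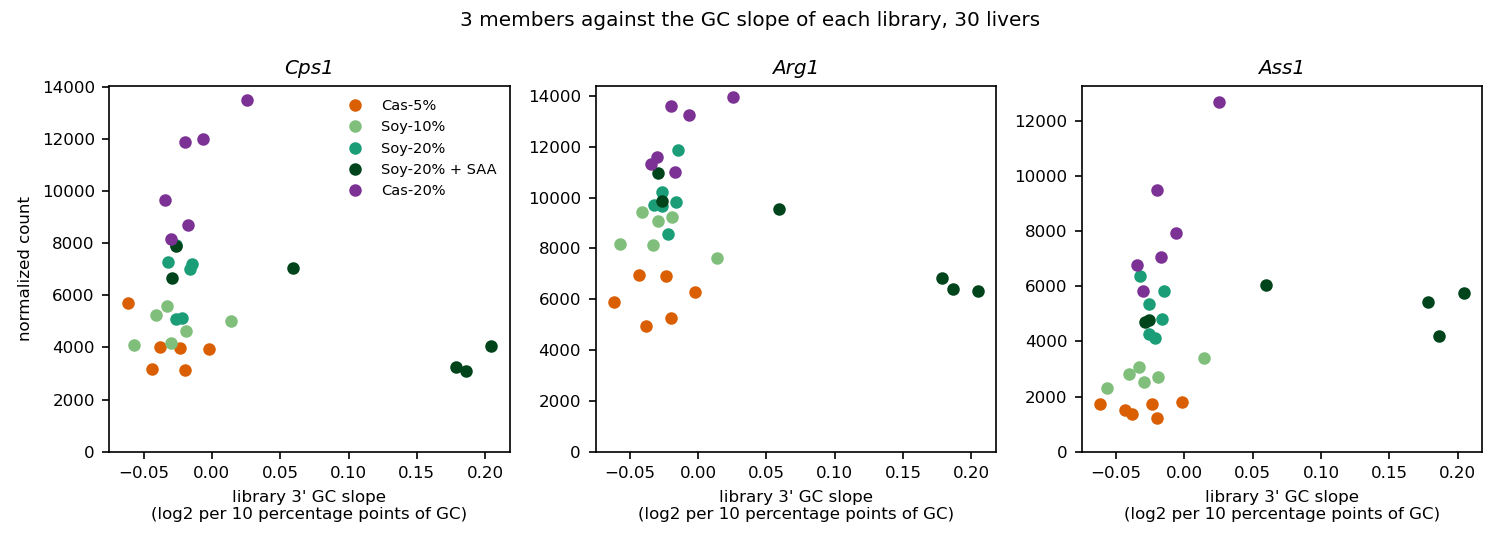
Normalized count (y axis, from 0) of *Cps1*, *Arg1* and *Ass1* against the GC slope of the library (x axis, log2 per 10 percentage points of GC over the last 200 bases of each transcript) in 30 livers, coloured by diet. Livers 4 to 6 of Soy-20% + SAA lie at slopes of 0.178 to 0.204, and there *Cps1* is 3094 to 4040 and *Arg1* 6343 to 6830, whereas *Ass1* is 4211 to 5763, within the range of Soy-20%.

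Other genes that feed or use the cycle were read from lists written by function, whose counts against Soy-20% + SAA include libraries 3 to 6. Of all genes, 13.3% were called lower with casein restriction, 8.47% against Soy-20% + SAA and 0.546% against Soy-20%. Called higher were 1397 of 12076, 1020 of 11983 and 38 of 11897 genes, in the same order. These shares stand beside the list and marker counts below. Of 11 tested enzymes that release ammonia from other amino acids, 8 fell and 0 rose with casein restriction (median log2 change −0.79), 2 fell against Soy-20% + SAA and 0 against Soy-20% (median −0.10). *Hal*, the histidine ammonia-lyase, fell by 1.11 ± 0.12 on Cas-5%, from a mean normalized count of 3073 to 1409, and was at −0.17 ± 0.077 on Soy-10% against Soy-20% (edgeR adjusted p = 0.39). *Gldc*, of the glycine cleavage system, fell by 0.79 ± 0.14 on Cas-5% and was at −0.34 ± 0.079 on Soy-10% (edgeR adjusted p = 0.053).

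Of 14 genes of glutamine synthesis and amino group transfer, 10 fell and 2 rose with casein restriction (median −0.80), 8 fell and 0 rose against Soy-20% + SAA (median −0.40), and 1 fell against Soy-20% (median −0.23). *Agxt*, the alanine-glyoxylate aminotransferase, fell by 2.0 ± 0.086 on Cas-5%, from 1276 to 315.2, with an edgeR adjusted p of 2.6e-10, and stood at −0.33 ± 0.14 on Soy-10% against Soy-20% (0.35). *Abat*, the GABA transaminase, fell by 1.70 ± 0.10 on Cas-5% and by 0.32 ± 0.07 on Soy-10% against Soy-20% (edgeR adjusted p = 0.041).

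Of 10 tested genes for transport and support of the cycle, 5 fell and 1 rose with casein restriction (median −0.31), 3 fell against Soy-20% + SAA and 0 against Soy-20%. *Slc38a3*, the glutamine transporter of the hepatocyte membrane, fell by 1.16 ± 0.073 on Cas-5%, from 5710 to 2535, and the amino acid transporter *Slc38a4* by 1.11 ± 0.093, from 10410 to 4786. *Slc38a4* was at −0.21 ± 0.056 on Soy-10% against Soy-20% (edgeR adjusted p = 0.11). Of 7 tested genes that use arginine and ornithine for other ends, 3 fell with casein restriction (median −0.20), 2 fell and 1 rose against Soy-20% + SAA (median 0.03) and 0 were called against Soy-20%. *Agmat*, the agmatinase, fell by 0.58 ± 0.071 on Cas-5% and was at −0.21 ± 0.055 on Soy-10% (edgeR adjusted p = 0.10).

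Of 12 transcription factors and receptors known to act on urea cycle genes, 3 fell and 1 rose with casein restriction (median −0.04), 2 rose and 0 fell against Soy-20% + SAA (median −0.04), and 0 were called against Soy-20%. *Cebpa*, a factor that the liver needs for ammonia disposal, fell by 0.56 ± 0.068 on Cas-5%, from 2502 to 1675, and *Creb1* was at 0.20 ± 0.09 (edgeR adjusted p = 0.13) and at 0.17 ± 0.064 on Soy-10% against Soy-20% (0.26), and rose by 0.42 ± 0.11 against Soy-20% + SAA (0.019). The median change over all genes was 0.02 with casein restriction and 0.00 with soy restriction against Soy-20%. With casein restriction 24.9% of all genes were called in either direction, so the calls among these regulators are not read as a trait of the list.

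Across the 30 livers, *Ass1* and *Gls2* were the most closely related pair (Pearson r = 0.969, and 0.767 after removing the diet means), followed by *Asl* with *Gls2* and *Ass1* with *Asl* (0.932 each, and 0.574 and 0.603). *Glud1* was negatively related to the 9 others, from −0.136 with *Nags* to −0.636 with *Otc*. After removing the diet means, its values ran from −0.427 with *Arg1* to 0.233 with *Nags*, and that with *Otc* was −0.13. The livers share diets, so these values are descriptions. Of the variance of log2 CPM, diet took 92.1% for *Ass1*, 91.2% for *Gls2*, 88.2% for *Otc* and 45.2% for *Glud1*.

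Of 12551 other genes, those whose log2 CPM was most like the mean profile of the 10 genes over 30 livers were *Gnmt* (r = 0.961), the glycine N-methyltransferase, *Aldh1l1* (0.95), of folate metabolism, *Ivd* (0.94), of leucine breakdown, the transporter *Slc38a4* (0.939) and *Nnmt* (0.939), the nicotinamide N-methyltransferase. Within diets these values were 0.426 to 0.689. Together the 10 genes took 0.33% ± 0.0245 of all counts on Cas-5%, 0.366% ± 0.00958 on Soy-10%, 0.417% ± 0.0242 on Soy-20%, 0.396% ± 0.039 on Soy-20% + SAA and 0.506% ± 0.0424 on Cas-20% (mean ± SD, n = 6).

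The libraries carried hepatocyte markers, with 6 of 6 present. Their summed level was 85900 to 102000 CPM on Cas-5% and 72000 to 80400 on Cas-20%, a sum to which *Alb* gives the most. With casein restriction 2 of the 6 rose, *Alb* (0.35 ± 0.094) and *Hnf4a* (0.27 ± 0.063), *Serpina1c* fell by 0.33 ± 0.096, and 3 were not called, with a list median of −0.03. The 7 markers of periportal hepatocytes, which hold most of the cycle, summed to 2390 to 3270 CPM on Cas-5% and 2850 to 3330 on Cas-20%, and 3 of them fell with casein restriction, 0 rose and 4 were not called. Of the 8 pericentral markers 5 fell, with sums of 4470 to 4910 and 4140 to 6230 CPM. *Hal* and *Sds* are in both the periportal and the ammonia lists, and *Oat* and *Glul* in both the pericentral and the transaminase lists.

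Endothelial markers (4 of 4 present) summed to 246 to 268 CPM on Cas-5% and 189 to 220 on Cas-20%, and stellate cell markers (5 of 5) to 362 to 504 and 254 to 364. With casein restriction 1 of the 4 endothelial markers rose, 0 fell and 3 were not called (median log2 change 0.19). Of the 5 stellate markers 1 rose, 0 fell and 4 were not called (median 0.3). Marker sums were scaled to the library total alone, without the normalization used in the tests. Kupffer cell markers (162 to 262 and 149 to 227), cholangiocyte markers (17.3 to 33.4 and 19.1 to 40) and lymphocyte markers (12.5 to 19.2 and 9.1 to 18.8) overlapped between those diets. The part of these cells in the changes was not tested. Pancreatic acinar markers summed to at most 0.261 CPM in both casein diets.

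*Gls2* overlaps *Spryd4* on the opposite strand, and *Nags* overlaps *Gm11586*. The library kit keeps the strand, but whether counting used it is not given in the sources used here. In GRCm38 the members lie at chr2:31470207-31520672 (*Ass1*, plus strand), chr10:128194457-128210004 (*Gls2*, plus), chr5:130011258-130029247 (*Asl*, minus), chr1:67123026-67231259 (*Cps1*, plus), chrX:10252305-10321024 (*Otc*, plus) and chr10:24915221-24927484 (*Arg1*, minus), each a protein-coding gene.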

How the data were processed

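Liver RNA of 30 mice was measured by QuantSeq 3′ sequencing (FWD kit, Bluebee pipeline). The first deposited table holds raw counts per gene, made by the authors and not normalized. The second deposited table holds a signal, the counts of each library divided by the authors' DESeq2 size factor (0.759 to 1.3), which a recomputation matched within 4.9e-15 of each value. The submitters' notes name R 4.0.3, DESeq2 1.30 and GRCm38 (mm10). The aligner and annotation release are not given in the sources used here, and the read length is stated differently in the labels and the methods. Coordinates of the 10 genes equal those of GENCODE M21. No column was left without a sample.

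Genes were kept by filterByExpr, normalized by TMM and tested with the two-sided quasi-likelihood F test of edgeR 4.0.16 in R 4.3.3, with Benjamini-Hochberg adjustment over all genes tested and a threshold of 0.05. "Called" means past that threshold. Intervals are 95% confidence intervals of the change or slope, computed from the variation between livers. DESeq2 1.42.0 was an alternative. Pairs of diets used 12 livers, the difference of both effects 24, and the diet slopes 30, with protein source as a term. The GC slope is the regression of each library's log2 deviation from the mean over 30 livers on transcript GC. Log2 CPM used a prior count of 2. On simulated counts with 200 changed genes, the casein comparison (12074 genes tested) called 165 of 198 tested changed genes and 5 of 11876 unchanged ones, and the difference of effects (12509 genes) 106 of 200 and 5 of 12309. The simulated counts held no GC trend, so false calls from the trend in Soy-20% + SAA libraries 3 to 6 were not measured. The median depth was 10803734 counts. Counting error alone gives *Nags*, the lowest of the 10 genes, a coefficient of variation of 5.04% to 5.84%, against 6.65% to 16.1% between livers, and *Asl*, for example, 2.21% to 3.19% against 9.61% to 17.7%.

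Members and lists were chosen with earlier results of these data known. All 10 genes are named whatever their values, and from each list the gene with the smallest adjusted p in the casein comparison and in Soy-10% against Soy-20%, plus the 5 genes most like the members. *Oat*, *Glul*, *Sds*, *Alb*, *Hnf4a* and *Serpina1c* were named after their values were seen. Replicate numbers were not used to pair mice in the main tests: no pair of diets had a correlation of deviations over 0.1 in all 6 pairs. For Soy-10% against Soy-20% + SAA 2 of the 6 pairs did, and a processing order shared by part of the libraries was not tested. Python 3.11.15, pandas 2.3.3 and matplotlib 3.10.9 were used for values and figures.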

Additional observations from a re-analysis of the deposited data

Results flagged for a closer look

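For 6 genes the casein effect and the soy effect differed by a test of the difference itself (log2 scale, casein minus soy, with Soy-20% + SAA as the soy control, edgeR): *Gls2* −1.43 (adjusted p = 2.3e-05), *Ass1* −1.52 (0.00012), *Otc* −0.63 (0.00034), *Arg1* −1.08 (0.00063), *Asl* −0.66 (0.0062) and *Cps1* −1.25 (0.0084). Of all genes, 5.49% had a more negative casein effect by this test. Casein restriction removed 15 percentage points of protein and soy restriction 8.5, so source and amount cannot be told apart. *Gls2*, *Arg1* and *Otc* were still called when scaled to the protein removed (8.39% of all genes in either direction). With Soy-20% as the control on that scale, none of the 6 was called (0.104%). The scaling was chosen after the data were seen. Without Soy-20% + SAA libraries 3 to 6, *Arg1* and *Cps1*, the 2 lowest in GC at their 3′ ends, stood at −0.75 and −0.80. *Cps1* was then no longer called.

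Among 50 sets of 6 livers (10 genes on 5 diets), 1 liver stood apart from the other 5 by Dixon's criterion: *Cps1* in Cas-5% liver 1, at 5683 against 3149 to 4000 in the rest. Chance alone gives about 5% of sets.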

How the results depend on the processing

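Of 50 values that passed the threshold, none changed sign when recomputed 978 times with 1 liver left out and 416 times under the other alternatives (other size factors, DESeq2, other filters, the replicate block, the GC slope, all livers in 1 fit, other diets or units), and 62 and 34 of those recomputed values no longer passed. Depth mattered most for *Nags*, whose counting error on Soy-10%, 5.77%, was close to its whole spread between livers, 6.65%.

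With the GC slope as a covariate, 3 genes were called for Soy-10% against Soy-20% + SAA (3.17% of all genes in either direction). Without Soy-20% + SAA libraries 3 to 6, 2 were (2.54%). For Cas-20% against Soy-20% + SAA both settings gave 0, for which the share of all genes is not given here. With Soy-20% as the soy diet, 2 were called for the last comparison (2.69%). Scaled to 10 percentage points of protein removed, 3 genes differed in effect between casein and soy (8.39%), and 0 did when Soy-20% served as control (0.104%). The protein slope was called for 3 genes in the soy diets alone (2.78%). The last 3 alternatives were chosen after seeing the data. The cause was not tested.

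With the replicate number as a block, the count went from 4 to 2 for Cas-20% against Soy-20% + SAA and from 3 to 2 for Soy-10% against Soy-20%. No other count changed. As far as the labels tell, these livers share only a number. Correlations of deviations between same-numbered livers ran from −0.155 to 0.183. Leaving out 1 liver at a time gave 1 to 4 genes for Soy-10% against Soy-20% and 0 to 4 for Cas-20% against Soy-20% + SAA. Shares of all genes called in these fits, and in those with the block, are not given here.

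None of the values that changed sign had passed the threshold. For Soy-10% against Soy-20% + SAA they were *Arg1* (−0.31 with the GC slope, −0.28 without libraries 3 to 6, −0.02 to 0.14 with 1 liver left out) and *Glud1* (0.09, 0.08, −0.03 to 0.03, and 0.00 with at least 10 counts in every liver or all 30 livers in 1 fit). For Soy-20% against Soy-20% + SAA they were *Cps1* (0.32 with all livers, −0.20 with the GC slope, −0.14 without libraries 3 to 6), *Ass1* (0.03 and 0.11, and −0.07 to 0.05 with 1 liver left out) and *Asl* (−0.03 to 0.05). *Nags* ran from −0.12 to 0.01 in the casein effect minus the soy effect with 1 liver left out. For the methionine term they were *Cps1* (0.04 with the GC slope, 0.06 without libraries 3 to 6), *Arg1* (0.02 and 0.04), *Gls2* (0.01 and 0.02), *Ass1* (0.01 without libraries 3 to 6, −0.03 to 0.01 with 1 liver left out) and *Asl* (−0.02 to 0.01).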
